A study of Gossypium hirsutum with 6 samples.

Results

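Sucrose synthase was represented by 2 probe numbers on the cotton fiber oligonucleotide array, GA_10dpa_fiberEST_00620 and GA_10dpa_fiberEST_10590, chosen by name because the annotation supplied with the study describes both as sucrose synthase. The first matches SUS4 of *Arabidopsis* best and the second SUS1, and they are called the SUS4 probe and the SUS1 probe here for that match alone. Each was deposited with 2 entries, 1 under the bare probe number and 1 with a source name added (the EST GA__Ed0079E08f for the SUS4 probe and the contig Ed_XGI.screen.Contig2880 for the SUS1 probe). Positions in the genome were not analysed here. The 4 entries stood among 11882 entries with a value at all 6 stages. Both probe numbers belong to a gene set that the study picked among genes regulated during fiber development relative to 5 dpa, for the distance between Pima and TM1 at 17 and 24 dpa. It was chosen partly on these same profiles, so that a change of its genes from 5 dpa is not independent evidence at any stage.

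The RNA came from developing fibers of untreated *G. hirsutum* cv. TM1 plants, an Upland cotton line grown in a greenhouse. Fibers were taken at 8, 10 and 14 days post anthesis (dpa), grouped here as elongation and primary cell wall (PCW) synthesis. Those of 17 dpa were taken as the transition, and those of 21 and 24 dpa as secondary cell wall (SCW) synthesis. The study describes overlapping phases, with elongation until 21 dpa and SCW synthesis from 14 dpa. It frames the transition as 17 to 24 dpa, so that this grouping is a simplification. Each stage was given as 1 profile of log2 ratios to fibers of 5 dpa, combined by the authors from the 2-colour hybridizations of a double loop with dye swaps, so that 1 unit is a 2-fold difference in transcript level. With 1 profile per stage no test between stages was possible, and the nearest to a repeat of a stage value was the second entry of the same probe number. Whether both entries carry the same oligonucleotide is not given in the sources used here, so that their gap may hold more than technical spread.

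Sucrose synthase cleaves sucrose, the sugar imported into sink tissues, into fructose and UDP-glucose, and UDP-glucose is the substrate from which cellulose synthase builds cellulose. The reaction is reversible, and plants carry several isoforms encoded by a small gene family. In cotton fiber the enzyme is abundant and has been linked both to the initiation and elongation of the fiber cell and to the supply of glucose units for its walls. An oligonucleotide can read more than 1 member of such a family, which was not tested here.

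All 4 sucrose synthase entries were below the 5 dpa level at all 6 stages, as were 20% of all probes. The bare entry of the SUS4 probe was at log2 ratios of -0.47, -0.39, -1.13, -0.99, -1.60 and -1.73, in the order of the stages from 8 to 24 dpa. The entry of the SUS4 probe with the EST name was at -0.85, -0.40, -1.43, -1.48, -2.04 and -2.41 in the same order. Both entries were nearest to 5 dpa at 10 dpa and farthest from it at 24 dpa. The bare entry of the SUS1 probe was at -0.26, -0.40, -1.41, -1.62, -2.45 and -2.49, and its entry with the contig name at -0.20, -0.55, -1.58, -1.97, -2.85 and -2.68. For the SUS1 probe the 8 dpa fibers were nearest to 5 dpa, and the 21 and 24 dpa fibers were the lowest.

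**Figure D1:**
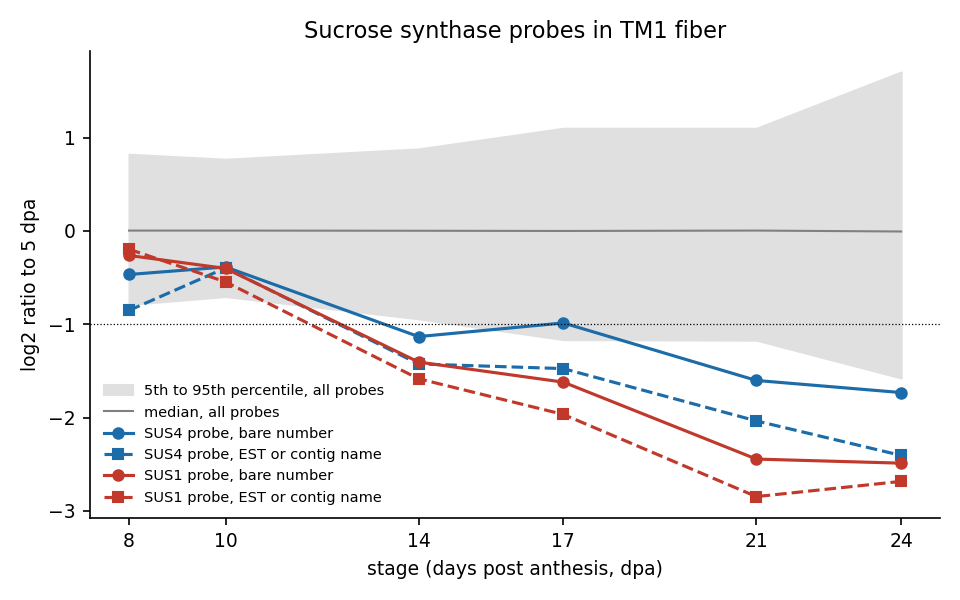
Log2 ratio to 5 dpa (y axis) of the 4 sucrose synthase entries at 8 to 24 dpa (x axis), with solid lines for bare numbers, dashed lines for entries with an EST or contig name, the dotted line at 2-fold lower, and the 5th to 95th percentile and median of all probes in grey. All 4 entries lie between 0 and -0.85 at 8 and 10 dpa and between -1.60 and -2.85 at 21 and 24 dpa.

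As the mean of its 2 entries, the SUS4 probe stood at 63.3%, 76.3%, 41.2%, 42.6%, 28.3% and 23.8% of its 5 dpa transcript level from 8 to 24 dpa. The corresponding levels of the SUS1 probe were 85.3%, 72.0%, 35.5%, 28.8%, 16.0% and 16.6%. The transcript that the SUS4 probe reads was thus 4.20-fold lower at 24 dpa than at 5 dpa, and that read by the SUS1 probe was 6.26-fold lower at 21 dpa and 6.01-fold lower at 24 dpa. Among all probes, ordered from lowest to highest ratio, the SUS1 probe moved from the 27.0 percentile at 8 dpa to the 0.581 percentile at 21 dpa and the 1.26 percentile at 24 dpa. The mean of the SUS4 probe was at the 7.28 percentile at 8 dpa, and its lowest place was the 1.78 percentile, reached at 21 dpa.

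At the 2-fold threshold, 0 of 4 sucrose synthase entries were lower at 8 dpa, where 2.77% of all probes were, and 0 of 4 at 10 dpa, where 2.08% were. All 4 were at least 2-fold lower at 14 dpa against 4.26% of all probes, 3 at 17 dpa against 7.09%, 4 at 21 dpa against 7.02% and 4 at 24 dpa against 12.3%. The exception at 17 dpa was the bare entry of the SUS4 probe, just short of the threshold at -0.99. At 1.5-fold, only the EST entry of the SUS4 probe was lower at 8 dpa, against 9.35% of all probes. All 4 entries were at least 3-fold lower at 21 dpa and at 24 dpa, as were 2.53% and 4.93% of all probes, and 0 of 4 at 14 dpa, where 1.13% were. No entry was 2-fold higher at any stage, while 3.2% of all probes were at 8 dpa and 11.3% at 24 dpa. All 4 were 2-fold lower at 14, 21 and 24 dpa alike, a pattern that 2.11% of all probes had. Among the 4200 probes above the buffer spots in every scanner file, the shares at least 2-fold lower were 0.167%, 0.0476%, 1.69%, 2.19%, 3.71% and 7.6% in stage order. The EST entry of the SUS4 probe was not among these probes, as it was above the buffer spots in 11 of 12 files.

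The difference between neighbouring stages does not depend on the 5 dpa reference, and the larger differences lay in a pair of steps. From 10 to 14 dpa the bare and named entries of the SUS4 probe changed by -0.75 and -1.03 on the log2 scale, while both entries of the SUS1 probe passed 2-fold, the contig entry at -1.04. This step was at least 2-fold down in 3 of 4 entries, against 1.58% of all probes, and at least 1.5-fold down in all 4, against 4.96%. From 17 to 21 dpa the entries of the SUS4 probe changed by -0.62 and -0.56 and those of the SUS1 probe by -0.82 and -0.88, which was a drop of at least 1.5-fold in 3 of 4 entries against 7.47% of all probes. This second step was 2-fold in 0 of 4 entries, against 3.16%. Between 14 and 17 dpa the mean of the SUS4 probe changed by 0.05 and that of the SUS1 probe by -0.30. Between 21 and 24 dpa the changes of the means were -0.25 for the SUS4 probe and 0.06 for the SUS1 probe, and from 8 to 10 dpa they were 0.27 and -0.24. In these 3 steps 0 of 4 entries were 1.5-fold down, against 7.5% of all probes from 8 to 10 dpa, 5.7% from 14 to 17 dpa and 14% from 21 to 24 dpa.

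Ordered from high to low, the stages of the SUS4 probe ran 10, 8, 17, 14, 21 and 24 dpa. The entries overlapped between 17 and 14 dpa and between 21 and 24 dpa, and every gap between neighbours in this order was within the SD between entries over the 17 probe numbers deposited with 2 entries. The stages of the SUS1 probe ran 8, 10, 14, 17, 24 and 21 dpa, with overlap between 24 and 21 dpa. Of its neighbours in this order, only 10 and 14 dpa, which differed by 1.02, were farther apart than that SD, which was at most 0.57 at these stages. This SD is between entries at 1 stage. An offset between entries that is alike at both stages cancels in a gap, so that the SD is not the error of a gap. Entry by entry (bare, then named), the SUS4 probe changed by -0.13 and -0.37 from 21 to 24 dpa. From 14 to 17 dpa its entries changed by 0.15 and -0.05. Those of the SUS1 probe changed by -0.04 and 0.16 from 21 to 24 dpa. The SD rests in part on 1 pair of entries, GA_10dpa_fiberEST_11688, singled out after its values were seen. Without it the SD was at most 0.45 at 8 and 17 dpa, and the gap of the SUS4 probe between these stages (0.57) was beyond it, while no other gap of either probe crossed it.

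Over 21 and 24 dpa, grouped here as SCW synthesis, both probes were lower than over 8, 10 and 14 dpa, grouped as PCW synthesis. The mean log2 ratio of the SUS1 probe went from -0.69 over 8, 10 and 14 dpa to -2.47 over 21 and 24 dpa in its bare entry, 3.43-fold lower, and from -0.78 to -2.77 in its contig entry, 3.98-fold lower. The entries of the SUS4 probe went from -0.66 to -1.67 (2.01-fold) and from -0.89 to -2.22 (2.51-fold). All 4 entries passed 2-fold in this comparison of phases, as did 4.7% of all probes.

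The profiles of the 2 sucrose synthase probes differed most at 21 dpa, where the mean ratio of the SUS1 probe was below that of the SUS4 probe by 0.83 on the log2 scale, or 1.77-fold. At 17 dpa the ratio of the SUS1 probe was lower by 1.48-fold and at 24 dpa by 1.43-fold, while at 8 dpa it was higher by 1.35-fold. At 10 and 14 dpa the 2 probes were 1.06-fold and 1.16-fold apart. The 2 entries of 1 probe did not overlap the 2 of the other at 8, 10, 17, 21 and 24 dpa, and overlapped at 14 dpa. At 10 dpa they stood apart only by -0.396 against -0.402. How often the entries of other probe numbers stand apart in this way was not counted. Set against the SD between entries, the difference between the probes was larger at 8 dpa (0.43 against 0.20) and at 21 dpa (0.83 against 0.66) and smaller at the other 4 stages, among them 24 dpa (0.52 against 1.10). Without GA_10dpa_fiberEST_11688 the difference at 17 dpa (0.56 against 0.45) was larger than the SD too. With the named entries alone the difference at 8 dpa was 0.66, and with the bare entries alone it was 0.20.

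The 2 entries of a sucrose synthase probe were within 0.67 of each other on the log2 scale at every stage, a spread in the middle of that of other probe numbers. Their mean absolute gap over the 6 stages was 0.38 for the SUS4 probe and 0.22 for the SUS1 probe, the 9th and 7th smallest of the 17 probe numbers with 2 entries, where the other 15 had a median of 0.46 and a range of 0.13 to 1.69. The gap of the SUS4 probe was largest at 24 dpa, at 0.67, and smallest at 10 dpa, at 0.01. The gap of the SUS1 probe was largest at 21 dpa, at 0.40, and smallest at 8 dpa, at 0.07. The entry with the EST or contig name was the lower one in 11 of 12 member gaps, and in 43 of 90 gaps of the other pairs. The gaps of a pair share its 5 dpa reference and are not independent, so that the member gaps stand for 2 pairs. Some other pairs were as one-sided. The entry with the added name was lower at 6 of 6 stages for GA_10dpa_fiberEST_02992, and at 0 of 6 for GA_10dpa_fiberEST_10642. At 24 dpa, 6 of the other 15 pairs had entries at least 2-fold apart, which neither sucrose synthase pair had at any stage. Both entries were at least 2-fold lower at 21 and at 24 dpa in both sucrose synthase pairs, and in 0 of the other 15 pairs. Of all single probes 4.64% had this pattern, so that 0 of 15 pairs is near the share of all probes.

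**Figure D2:**
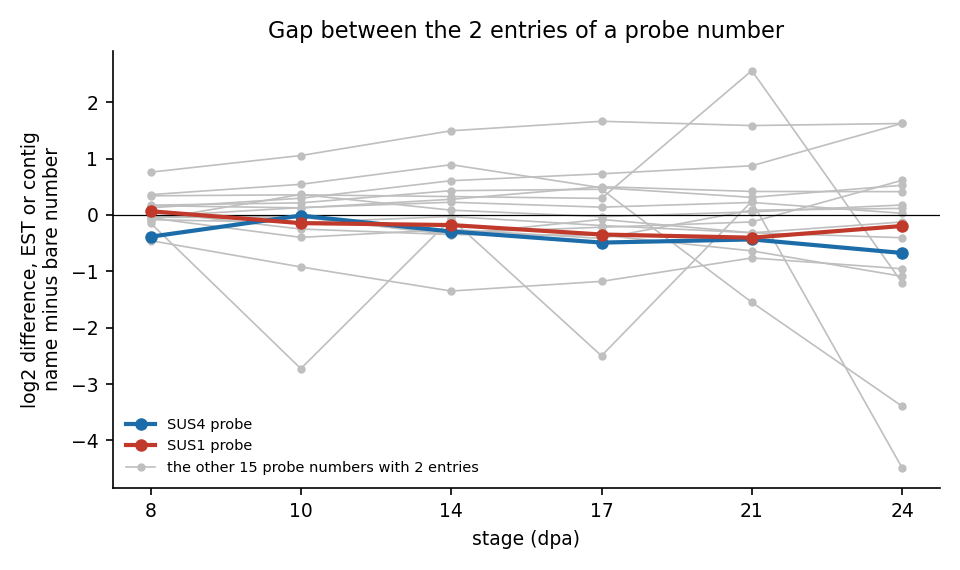
Difference in log2 ratio between the 2 entries of a probe number, EST or contig name minus bare number (y axis), at each stage (x axis), for the SUS4 probe, the SUS1 probe and the other 15 numbers with 2 entries. Both sucrose synthase numbers stay within 0.67 of 0, while the largest gap of the others reaches 4.49 at 24 dpa.

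Scanner files were available for only part of the hybridizations behind these ratios, and none is filed under the reference stage. The files show how far above background the probes read on their own arrays, and not how each deposited ratio was measured. There were 12 files from 7 arrays, with 25392 spots each, of which 786 to 3433 per file were flagged by hand, and the median signal after subtraction of the local background ranged from 34.1 to 612 between files. Between 46.4% and 91.8% of probes exceeded the buffer spots, taken as their median plus 3 scaled median absolute deviations. The 4 chlorophyll a/b binding protein features on the array, transcripts that are abundant in leaf, had log2 ratios from -1.85 to 0.71 and were below 5 dpa in 18 of 24 values. They were above the buffer spots in 8 to 11 of 12 files, and their part in the sucrose synthase values was not tested.

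Each sucrose synthase probe had 8 spots per file, 6 with the bare number and 2 with the EST or contig name. The mean signal of the SUS4 probe over its unflagged spots was 807 ± 250 (SD over 8 spots) in Cy3 and 603 ± 182 in Cy5 on the array filed under 8 dpa, and 899.9 ± 431 in Cy3 and 1081 ± 586 in Cy5 on that filed under 10 dpa. On the arrays filed under 14 and 17 dpa it was 373 ± 142 (Cy5) and 532 ± 183 (Cy3), and 1149 ± 367 (Cy5) and 1691 ± 577 (Cy3). Of these, 532 and 1149 came from the 2 dyes of 1 array. The median over all probe spots of that array was 303 in Cy3 and 612 in Cy5. On the array filed under 21 dpa the mean signal of the SUS4 probe was 579 ± 116 in Cy3 and 131 ± 22.1 in Cy5. It was lowest on the array filed under 24 dpa, at 48.5 ± 13.1 (7 spots) in Cy3. The whole array was weak in that dye, with a median over all probe spots of 34.1 against 277 in Cy5. In Cy5 of the same array the SUS4 probe was at 1050.0 ± 249. The mean signal of the SUS4 probe exceeded the buffer threshold in 12 of 12 files, by 1.30 to 22.8 times with a median of 4.31 times, and its 2 spots with the EST name alone exceeded it in 11 of 12.

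The signal of the SUS1 probe was 2748 ± 1202 in Cy3 and 2564 ± 1134 in Cy5 on the array filed under 8 dpa, and 3456 ± 548 and 4160 ± 601 on that filed under 10 dpa. On the arrays filed under 14 and 17 dpa it was 1862 ± 1131 (Cy5) and 1715 ± 695 (Cy3), and 2875 ± 1158 (Cy5) and 1658 ± 326 (Cy3, 7 spots). Here too, 1715 and 2875 came from the 2 dyes of 1 array. On the array filed under 21 dpa the signal of the SUS1 probe was 3117 ± 2220 in Cy3 and 381 ± 223 in Cy5 (7 spots each). On that filed under 24 dpa it was 75.5 ± 37.2 in Cy3 and 3045 ± 1505 in Cy5. On the arrays filed under 21 and 24 dpa 1 dye was much brighter than the other for both probes, Cy3 on the first and Cy5 on the second. The medians over all probe spots were 233 in Cy3 and 180 in Cy5 on the first, and 34.1 and 277 on the second. The SUS1 probe exceeded the buffer threshold in 12 of 12 files, by 2.02 to 87.9 times with a median of 15.5 times. The brightest spot of either probe read 7278 after background subtraction, far below the scanner's ceiling. The methods name another threshold, the mean of the buffer spots plus 3 SD, and apply it to single spots. Against it, the mean signal of the SUS4 probe passed in 0 of 12 files and that of the SUS1 probe in 6 of 12. Single spots of the SUS4 probe did pass, such as 1 at 2021 against 1405 in Cy5 of the array filed under 10 dpa. The mean of its 2 spots with the EST name passed in 3 files. Which spots entered the deposited ratios is not given in the sources used here.

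**Figure D3:**
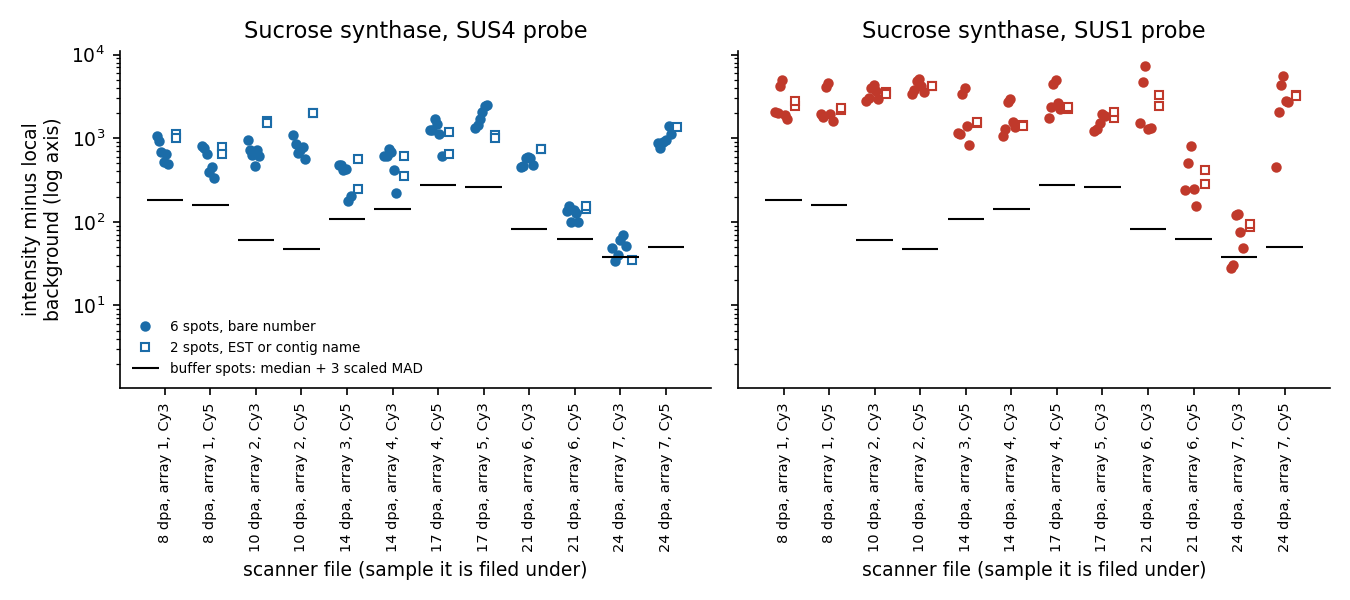
Background-subtracted intensity (y axis, log scale) of each unflagged spot of the SUS4 probe (left) and the SUS1 probe (right) in the 12 scanner files (x axis), with filled circles for the bare number, open squares for the EST or contig name, and a black line at the buffer threshold of each file. The spots come nearest to the line in Cy3 of array 7, filed under 24 dpa, where the SUS4 probe is at 1.30 and the SUS1 probe at 2.02 times the threshold.

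The 8 spots of a probe stood at 4 places of the array, 2 side by side at each. Side-by-side spots differed by a median of 1.18-fold for the SUS4 probe (46 pairs) and 1.12-fold for the SUS1 probe (45 pairs). The brightest and dimmest place differed more, by a median of 1.92-fold for the SUS4 probe (1.30 to 2.98 over the files) and 2.50-fold for the SUS1 probe (1.40 to 4.62). For the SUS1 probe the brightest place was the same one, of bare-number spots, in 11 of 12 files. The SD over spots given above includes this spread between places and is technical.

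On 5 arrays both dyes were deposited, so that the 2 hybridized stages could be compared spot by spot, but the labels do not settle which stage is in which dye, and only the size of the ratio is given. After normexp background correction and loess, the size for the SUS4 probe was 0.44 ± 0.16 on the log2 scale (SD over 8 spots) on the array filed under 8 dpa, 0.51 ± 0.22 on that filed under 10 dpa and 0.08 ± 0.15 on that filed under 14 and 17 dpa. It was 1.41 ± 0.26 (8 spots) on the array filed under 21 dpa and 1.09 ± 0.28 (7 spots) on that filed under 24 dpa. For the SUS1 probe the sizes on the first 3 of these arrays were 0.29 ± 0.10, 0.64 ± 0.05 and 0.27 ± 0.06. They were 2.54 ± 0.39 (7 spots) on the array filed under 21 dpa and 2.09 ± 0.69 (8 spots) on that filed under 24 dpa, or 5.82-fold and 4.25-fold. Both sucrose synthase probes thus passed 2-fold on the arrays of 21 and 24 dpa, where 4.35% and 6.96% of all probes did, and on none of the other 3, where 0.188%, 0.737% and 1.25% did. These shares depend on the normalization: with the background subtracted and each array centred on its median, without loess, 17.1% and 38% of all probes passed 2-fold on the arrays of 21 and 24 dpa, and 5.57%, 6.3% and 5.2% on the other 3.

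Within an array the spots of a sucrose synthase probe fell on the same side, except that 6 of 8 spots of the SUS4 probe did so on the array filed under 14 and 17 dpa, where its size was smaller than that of 46.0% of probes. A larger size than that of the SUS1 probe was found for 0.424% of probes on the array of 21 dpa and 0.643% on that of 24 dpa, and a larger one than that of the SUS4 probe for 1.86% and 5.76%. Without loess the shares with a larger size were 2.38% and 9.33% for the SUS1 probe and 5.77% and 21.5% for the SUS4 probe. Both probes were on the same side of 0 on the arrays of 8, 10, 21 and 24 dpa and on opposite sides on that of 14 and 17 dpa. On the array of 24 dpa 1 spot of the SUS1 probe gave 0.43, while the other 7 gave 2.17 to 2.66. The SD covers spots of 1 hybridization only, so that it says nothing of the spread between plants or RNA samples.

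**Figure D4:**
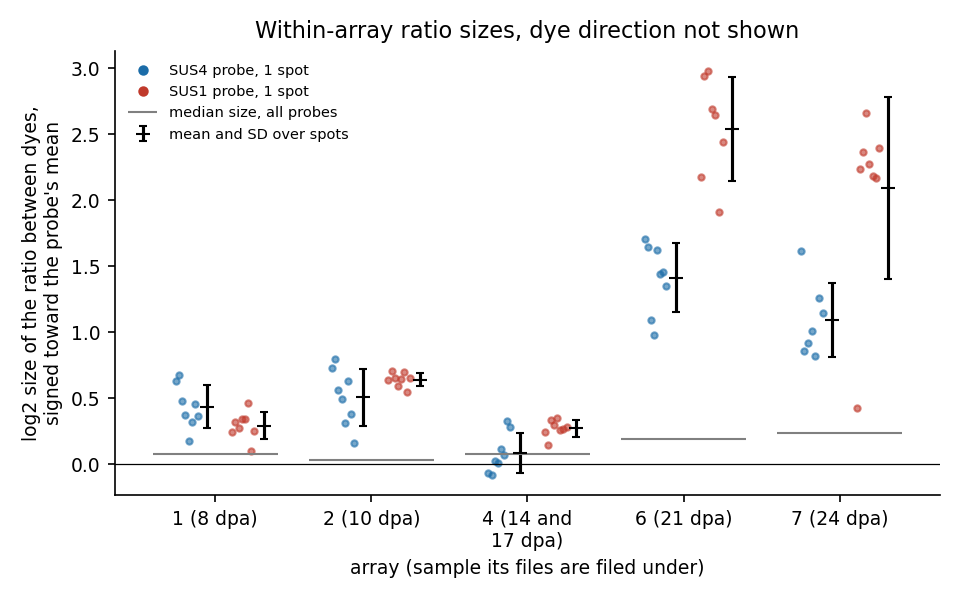
Size of the log2 ratio between the 2 dyes of an array (y axis), signed so that the mean of each probe is positive, for every spot of the SUS4 probe and the SUS1 probe on the 5 arrays with both dyes (x axis), with the mean and SD over spots in black and the median size of all probes as a grey line. The sizes are 0.08 to 0.64 on arrays 1, 2 and 4 and 1.09 to 2.54 on arrays 6 and 7.

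The other genes that the study's annotation places with sucrose synthase in starch and sucrose metabolism stood above their 5 dpa level where it stood below. The cellulose synthase catalytic subunit (GA_10dpa_fiberEST_02992), which polymerizes glucose from UDP-glucose into cellulose, was at 0.54, 0.35, 0.34, 0.30, 0.46 and 0.84 at 8, 10, 14, 17, 21 and 24 dpa in its bare entry and at 0.46, 0.22, 0.31, 0.11, 0.14 and 0.43 in its named entry. Endo-1,4-beta-glucanase (GA_10dpa_fiberEST_10639), of a family that cleaves beta-1,4-glucans in walls, was at 0.39, 0.11, 0.11, 0.12, 0.28 and 0.88. Both genes had values above 5 dpa at every stage, a pattern whose share among all probes was not counted. At 2-fold, 0 of 2 passed in either direction at any stage. Of all probes, 2.82% (10 dpa) to 11.3% (24 dpa) were 2-fold higher, and 2.08% (10 dpa) to 12.3% (24 dpa) 2-fold lower. At 24 dpa, the SUS1 probe was at -2.59 and the SUS4 probe at -2.07 as means of their entries. These genes, and the wall genes described next, come from the same set that the study chose partly on these profiles.

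Genes of wall loosening and the cytoskeleton, which serve the elongating fiber, were mostly at or above 5 dpa at the stages where sucrose synthase was low. Of these 7 genes, at least 2-fold higher were 2 genes at 8 dpa (3.2% of all probes), 2 genes at 10 dpa (2.82%), 4 genes at 14 dpa (3.79%), 3 genes at 17 dpa (5.9%), 4 genes at 21 dpa (5.97%) and 3 genes at 24 dpa (11.3%). The median log2 ratio of the list was 0.74, 0.47, 1.16, 0.93, 1.08 and 0.80 at the 6 stages, beside medians of all probes within 0.01 of 0. Xyloglucan endotransglycosylase (GA_10dpa_fiberEST_12158), which cuts and rejoins the xyloglucan chains of the wall, was at 1.22, 1.08, 1.78, 1.62, 1.80 and 2.06. Expansin 1 (GA_10dpa_fiberEST_00974), a wall-loosening protein, was at 0.44, 0.47, 1.26, 1.32, 1.20 and 1.06. The beta-tubulins, subunits of the microtubules that guide cellulose deposition, were above 5 dpa at all stages, with GA_10dpa_fiberEST_07246 at 1.34 and GA_10dpa_fiberEST_11289 at 1.08 at 21 dpa.

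The remaining 3 genes of this list had other courses. The putative beta-galactosidase precursor (GA_10dpa_fiberEST_03757), of a family that removes galactose from wall polymers, went from 1.51 at 8 dpa to -0.19 at 24 dpa. Actin (GA_10dpa_fiberEST_04501), whose filaments guide vesicles to the growing wall, went from 0.74 to -0.98 over the same interval. Only the other beta-galactosidase (GA_10dpa_fiberEST_04269) was 2-fold lower at any stage, at -1.11, -1.44 and -1.49 from 10 to 17 dpa, and it was at -0.17 by 24 dpa, where both sucrose synthase probes were near or at their lowest.

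**Figure D5:**
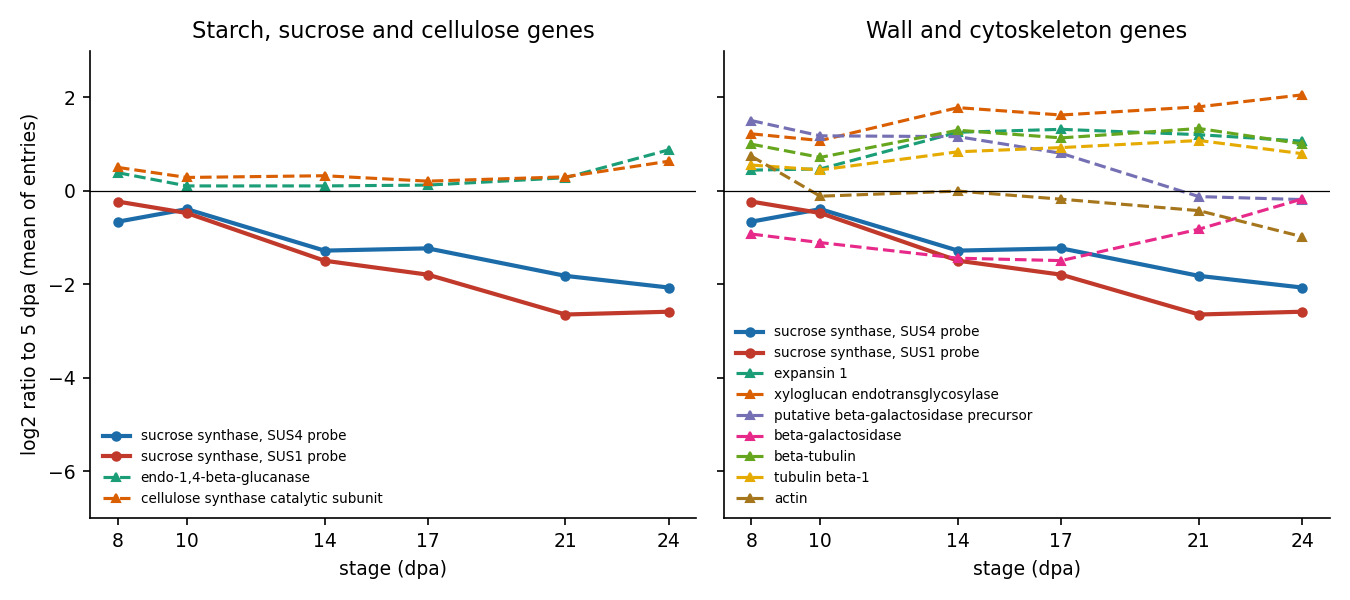
Log2 ratio to 5 dpa (y axis, mean of entries) by stage (x axis) of the SUS4 probe and the SUS1 probe (thick lines) beside the 2 other starch, sucrose and cellulose genes (left) and the 7 wall and cytoskeleton genes (right). At 24 dpa the sucrose synthase probes are at -2.07 and -2.59 and the other genes lie between -0.98 and 2.06.

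Likeness to the mean profile of each sucrose synthase probe was measured as the Euclidean distance over the 6 log2 ratios, among 11880 other entries that share the 5 dpa reference. The nearest to the SUS4 probe were GA_10dpa_fiberEST_03017 (distance 0.36) and GA_10dpa_fiberEST_10686 (0.43), and to the SUS1 probe GA_10dpa_fiberEST_03873 (0.51) and GA_10dpa_fiberEST_12374 (0.63), none of which has a description in the sources used here. GA_10dpa_fiberEST_03873 was at 0.08, -0.43, -1.22, -1.63, -2.42 and -2.64, and so started above 5 dpa, unlike the SUS1 probe. The named entry of the SUS4 probe was the 14th nearest to the SUS1 probe (0.95) and its bare entry the 124th (1.63), while the entries of the SUS1 probe were the 135th (0.95) and 518th (1.52) nearest to the SUS4 probe.

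Descriptions were at hand only for the study's gene set that holds both probes, a small part of the array chosen partly on these profiles. Of the described genes in that set, the nearest to both by this distance was a probe annotated as SBT2 protein (GA_10dpa_fiberEST_10417). It ranked 42nd for the SUS4 probe (0.70) and 63rd for the SUS1 probe (1.32). It was at -0.76 at 17 dpa, -2.19 at 21 dpa and -2.23 at 24 dpa. A probe annotated as dentin sialophosphoprotein precursor (GA_10dpa_fiberEST_00338) was next for both by this distance, at 0.70 and 1.61, with -2.22 at 24 dpa. Flavanone 3-hydroxylase (GA_10dpa_fiberEST_10602), which acts in the pathway to flavonols and anthocyanins, was at distances of 1.07 and 1.73, and it differed from sucrose synthase at 8 dpa, where it was already at -1.37. The nucleic acid binding protein-like probe (GA_10dpa_fiberEST_03683) was at 0.88 from the SUS4 probe and 2.01 from the SUS1 probe. The putative ZF-HD homeobox protein (GA_10dpa_fiberEST_00091) was 1.12 from the SUS4 probe, and the NPH3 domain containing protein-like probe (GA_10dpa_fiberEST_00949) 1.80 from the SUS1 probe, with a lower ratio than the SUS1 probe at 24 dpa, -3.87.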

How the data were processed

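For each stage the authors supplied a log2 ratio to 5 dpa, a coefficient of LIMMA linear models, made after flagging by hand, background subtraction, removal of spots below a buffer threshold and of dye swaps that diverged, and a lowess fit against intensity-dependent bias. The 12 scanner files give, as deposited, the raw mean intensity of each spot and its local background, with a flag. The ratios were used as deposited. Of the entries, 1 without a name was left out, and 0 columns of values lacked a stage. Calls used 2-fold, with 1.5-fold and 3-fold as alternatives. Signal per probe number was the mean over unflagged spots minus local background. Array ratios were made with limma 3.58.1 in R 4.3.3 (normexp, offset 50, loess), and the rest with Python 3.11.15, numpy 2.4.6 and pandas 2.3.3. The fold calls, the likeness measures and the loess ratios were tested on simulated data, and the other steps were not. The number of arrays limits the precision. No test was made. Named genes were the members, the genes of both lists, and for each probe number the 5 nearest described and up to 2 nearest undescribed probes. Described probes were only those of the study's gene set that holds both members. The members and lists were chosen with earlier results of these data known.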

Additional observations from a re-analysis of the deposited data

How the results depend on the processing

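No paired analysis was possible because each stage is 1 profile without replicates, and for the same reason no replicate could be left out. Centring each stage on its median changed no call of the sucrose synthase entries and none of their values by more than 0.0056, and no value of theirs changed direction under any alternative tried. At 1.5-fold, 1 of 4 entries was lower at 8 dpa, and at 3-fold 0 of 4 were at 14 dpa. The difference between the SUS1 probe and the SUS4 probe at 8 dpa was 0.66 with named and 0.20 with bare entries only. Among probes above the buffer spots in every file, the shares 2-fold lower were 0.167%, 0.0476%, 1.69%, 2.19%, 3.71% and 7.6% from 8 to 24 dpa. The EST entry of the SUS4 probe was not among these probes. With the buffer spots' mean plus 3 SD, the mean signal over spots of the SUS4 probe passed in 0 files and that of the SUS1 probe in 6. Without loess, an alternative chosen after seeing the data, the ratio sizes of the SUS4 probe were 1.83 on the array of 21 dpa and 1.54 on that of 24 dpa, and 17.1% and 38% of all probes passed 2-fold there. By Pearson correlation in place of distance, the nearest entry of the other sucrose synthase number ranked 51st for the SUS4 probe and 90th for the SUS1 probe, and without 24 dpa it ranked 38th by distance for the SUS1 probe. The nearest described gene changed too: by Pearson correlation it was glutathione S-transferase (GA_10dpa_fiberEST_11644) for the SUS4 probe, 123rd, and CER1-like protein (GA_10dpa_fiberEST_10650) for the SUS1 probe, 59th, with SBT2 protein at 157th and 635th. Without 24 dpa the NPH3 domain probe (97th) preceded SBT2 protein (101st) for the SUS1 probe. At 1.5-fold, 2 genes of the cellulose list were higher at 24 dpa. In the wall list 4 were higher and 1 lower at 8 dpa, 5 higher at 17 dpa, and 1 lower at 21 and at 24 dpa. Of all probes, 9.35%, 15.9% and 23.3% were 1.5-fold lower at 8, 21 and 24 dpa. The share 1.5-fold higher was not counted, so that the counts of higher genes have no share beside them. Signal limits the SUS4 probe most, in Cy3 of the array filed under 24 dpa, at 1.30 times the buffer threshold.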
